A study of Mus musculus with 6 samples.

Results

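Neighbouring gene pairs with facing ends at most 1000 bp apart were described in the mouse embryonal carcinoma line P19 by the peaks of crotonylated and acetylated lysine 9 of histone H3 (H3K9cr and H3K9ac). A pair was any 2 autosomal protein-coding genes of GRCm38 whose gene records did not overlap and whose facing ends lay within that distance, and in 35 pairs another coding gene lay in or over the gap. The rule found 2014 pairs, beside 18559 directly adjacent pairs without overlap at any distance, and they held 3614 of 20665 autosomal protein-coding genes. No measured value entered the rule. The groups compared were H3K9cr and H3K9ac, each with 2 replicates of untreated cells grown in proliferation medium and each measured by native chromatin immunoprecipitation (without crosslinking) and sequencing, with a single antibody per mark. What belongs to the mark and what belongs to its antibody cannot be told apart. P19 is 1 established line, so the replicates measure the spread within it. The 2 input libraries were not analysed here.

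Genes that start close together and point away from each other are called head-to-head, and the stretch between their starts often acts as a bidirectional promoter that serves both. In tandem pairs the end of a gene faces the start of the next, and in tail-to-tail pairs both 3' ends face each other. Such close pairs are common in mammalian genomes, and head-to-head pairs are known for housekeeping functions such as DNA repair, mitochondrial respiration and translation. H3K9ac is placed by histone acetyltransferases and is typical of active promoters. H3K9cr is a longer-chain acylation of the same lysine, is also found at active promoters, and competes with acetylation for the same residue. Both marks sit on nucleosomes, which flank the nucleosome-depleted stretch at an active start.

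Orientation was known for both genes of 1435 pairs, which fell into 565 head-to-head, 448 tandem and 422 tail-to-tail pairs, and was not assigned for the other 579. The median gap was 100 bp in head-to-head pairs (quartiles 48 and 234 bp), 452.5 bp in tandem pairs and 381 bp in tail-to-tail pairs. A gap of at most 100 bp was found in 283 head-to-head pairs (50.1%), 58 tandem pairs (12.9%) and 79 tail-to-tail pairs (18.7%). The pairs were compared with 24921 single ends, which are ends of genes that overlap no other coding gene and have none within 5000 bp of that end. Of these, 10334 were 5' ends and 9471 were 3' ends. Each pair was read in the gap and 500 bp on either side of it, and each single end in 500 bp on either side of it.

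The sequences between the starts are printed for a few head-to-head pairs as examples. They do not stand for all pairs with or without a peak. The 4 pairs shown first carried peaks in every library: Brca1/Nbr1 (GRCm38.p6, chr11:101551926-101552136), Atm/Npat (chr9:53536799-53536918), Tnfaip1/Ift20 (chr11:78536241-78536390) and Nup88/Rpain (chr11:70969944-70970159). The next 4 had no peak in any library: Smc1b/Ribc2 (chr15:85131928-85132089), Ifit1bl2/Ifit1 (chr19:34640798-34640918), Tfpi2/Gngt1 (chr6:3988949-3989111) and Best1/Rab3il1 (chr19:10001604-10001698). All are written on the plus strand of the RefSeq promoter windows, with the gap between the starts in capitals and 30 bases of each gene in lower case.
Brca1/Nbr1: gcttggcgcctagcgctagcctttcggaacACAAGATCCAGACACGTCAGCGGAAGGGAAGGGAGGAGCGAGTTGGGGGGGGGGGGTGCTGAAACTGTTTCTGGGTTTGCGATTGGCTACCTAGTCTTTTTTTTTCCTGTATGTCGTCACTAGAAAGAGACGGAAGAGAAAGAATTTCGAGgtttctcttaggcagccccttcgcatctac
Atm/Npat: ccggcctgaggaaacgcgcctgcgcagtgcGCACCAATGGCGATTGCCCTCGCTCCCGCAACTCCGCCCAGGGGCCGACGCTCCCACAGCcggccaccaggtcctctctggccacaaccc
Tnfaip1/Ift20: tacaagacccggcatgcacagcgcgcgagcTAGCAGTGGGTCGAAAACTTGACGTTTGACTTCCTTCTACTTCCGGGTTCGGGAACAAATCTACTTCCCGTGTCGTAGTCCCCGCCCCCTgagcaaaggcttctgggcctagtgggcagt
Nup88/Rpain: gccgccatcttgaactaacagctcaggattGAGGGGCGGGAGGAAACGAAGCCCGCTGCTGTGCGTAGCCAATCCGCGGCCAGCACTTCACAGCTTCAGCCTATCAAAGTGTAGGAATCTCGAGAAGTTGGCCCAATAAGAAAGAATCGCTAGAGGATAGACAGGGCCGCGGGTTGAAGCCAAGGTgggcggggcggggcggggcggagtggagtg
Smc1b/Ribc2: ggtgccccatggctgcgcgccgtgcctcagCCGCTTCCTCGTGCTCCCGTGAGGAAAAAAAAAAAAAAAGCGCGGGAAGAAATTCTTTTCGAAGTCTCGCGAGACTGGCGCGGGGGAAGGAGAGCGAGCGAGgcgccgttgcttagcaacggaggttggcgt
Ifit1bl2/Ifit1: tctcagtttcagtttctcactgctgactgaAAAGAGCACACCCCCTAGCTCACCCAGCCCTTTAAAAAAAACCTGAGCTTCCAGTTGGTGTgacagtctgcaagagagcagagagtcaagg
Tfpi2/Gngt1: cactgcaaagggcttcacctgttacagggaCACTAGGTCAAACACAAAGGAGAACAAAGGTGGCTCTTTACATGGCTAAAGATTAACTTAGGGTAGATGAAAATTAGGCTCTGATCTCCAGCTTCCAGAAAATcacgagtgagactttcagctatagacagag
Best1/Rab3il1: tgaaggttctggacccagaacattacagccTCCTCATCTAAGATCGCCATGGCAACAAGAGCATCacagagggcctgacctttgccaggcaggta

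In these stretches the dinucleotide CpG occurred 11 times in the 211 bases of Brca1/Nbr1, 12 times in the 120 bases of Atm/Npat, 11 times in the 150 bases of Tnfaip1/Ift20 and 15 times in the 216 bases of Nup88/Rpain. It occurred 0 times in the 121 bases of Ifit1bl2/Ifit1, once in the 163 bases of Tfpi2/Gngt1 and once in the 95 bases of Best1/Rab3il1. Smc1b/Ribc2 had 19 CpG in 162 bases and no peak, so a CpG-rich stretch was not always occupied. Pairs without a peak that are not printed also differed. Gm2436/Srp54b had 25 CpG in 245 bases and Ctnnd1/Btbd18 had 17 in 154, whereas Ngef/Neu2 had 1 in 216.

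The 4 peak lists held 26096 to 28360 peaks with a median length of 1185 to 1246 bp, and H3K9ac replicate 1 had the shortest list, the shortest peaks and the most peaks that were split. The lists carry no read depth, so the precision behind a single peak is unknown, and a missing peak says only that none passed the authors' threshold. Defining genes of pluripotent cells had a peak in every library for 8 of 8 (Pou5f1, Sox2 and Nanog among them), against 3 of 6 for fibroblasts, 2 of 4 for blood, 3 of 4 for neurons and 1 of 4 for hepatocytes. Library values are given below in the order H3K9cr replicate 1, H3K9cr replicate 2, H3K9ac replicate 1 and H3K9ac replicate 2. Differences within a library were compared over the 4 libraries with a two-sided exact sign-flip permutation test, for which the smallest possible p is 0.13. Peaks that serve 2 pairs were few: the 1270 pairs with a peak in any library formed 1226 groups with no peak in common.

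Nearly all head-to-head pairs carried both marks. Of 565 head-to-head pairs, 95.9%, 95.9%, 95.6% and 95.8% had a peak in the 4 libraries, against 53.8%, 53.8%, 53.0% and 53.8% of 10334 single 5' ends. The libraries hardly differed within a class, and the classes were far apart in each of them. The difference was 42.2 percentage points ± 0.289 (SD, n = 4 libraries; exact sign-flip p = 0.13, higher in 4 of 4). Peaks in every library were found at 539 head-to-head pairs (95.4%) and at 5412 single 5' ends (52.4%).

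Tandem pairs came next and tail-to-tail pairs were mostly without a peak. Of 448 tandem pairs, 72.3%, 71.7%, 69.6% and 72.1% had a peak, which was 17.8 percentage points ± 0.828 above single 5' ends (SD, n = 4; exact p = 0.13). The window of a pair is wider than that of a single end by the gap. With each end of a pair read on its own, the tandem difference was 13.5 points and the head-to-head difference 41.7 points. With gaps up to 500 bp the tandem difference was 12.6 points. Single 5' ends included 1204 of olfactory and vomeronasal receptor genes, and 0 of these had peaks in all libraries. Without receptor genes the tandem difference was 11.3 points and the head-to-head difference 35.3 points. Of 422 tail-to-tail pairs, 12.1%, 11.1%, 11.4% and 11.8% had a peak, against 2.63% to 3.20% of single 3' ends. That difference was 8.62 points ± 0.463 (SD, n = 4; exact p = 0.13), but 2.62 points when the summit itself had to lie in the window and 13.1 points with 1000 bp on either side. Over all 2014 pairs, 1212 (60.2%) had peaks in every library, 744 had none and 58 had peaks in some.

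**Figure D1:**
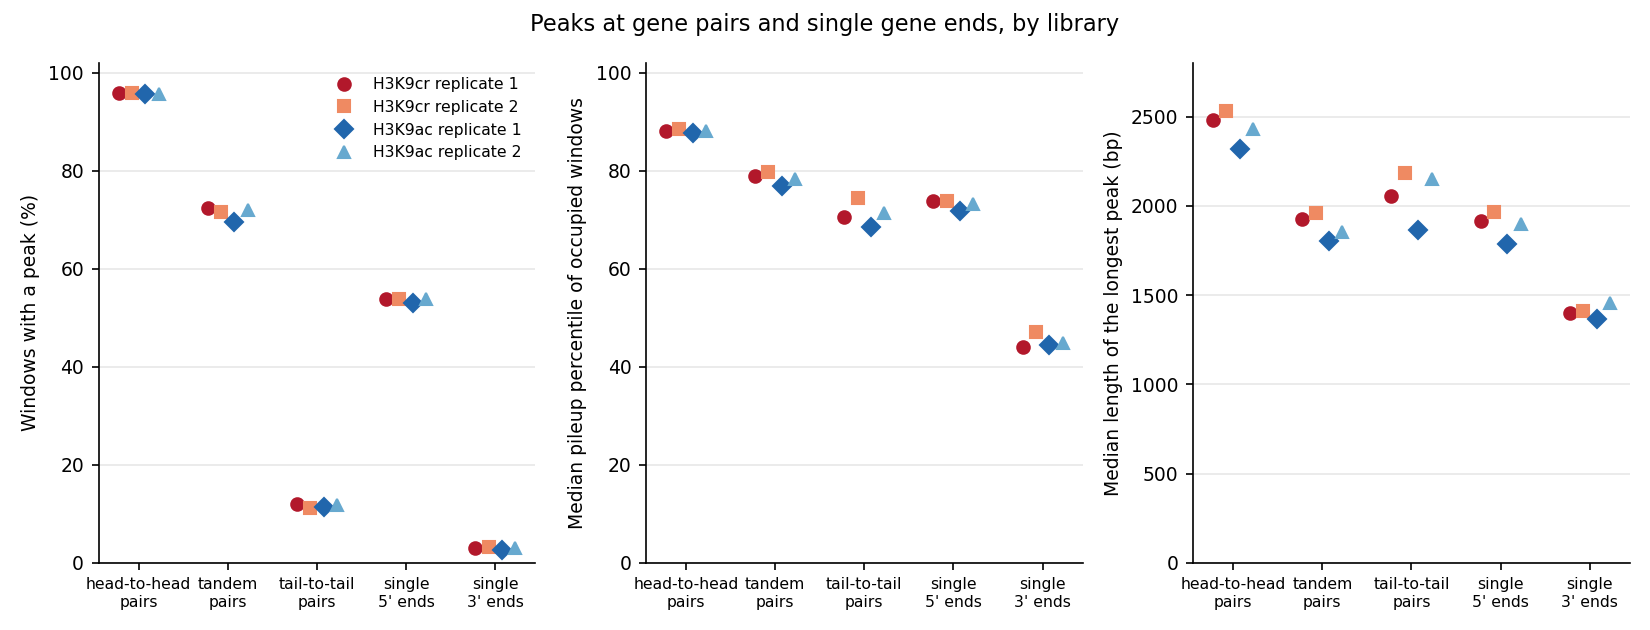
Share of windows with a peak (left, %), median pileup percentile of occupied windows (middle) and median length of the longest peak (right, bp) for head-to-head, tandem and tail-to-tail pairs and for single 5' and 3' ends; each symbol is 1 library. Head-to-head pairs are highest in each library in all 3 panels, with 95.6% to 95.9% occupied, percentiles of 87.8 to 88.6 and lengths of 2316 to 2528.5 bp.

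Peaks at head-to-head pairs also ranked higher and ran longer. Pileup, the coverage at the summit, was compared only as a percentile within each list, since its scale differs between libraries. The median percentile of the highest peak was 88.2, 88.6, 87.8 and 88.1 at occupied head-to-head pairs, against 73.8, 73.7, 71.8 and 73.2 at occupied single 5' ends, a difference of 15.1 ± 0.666 (SD, n = 4; exact p = 0.13). The highest decile of the list held the highest peak of 44.0% of occupied head-to-head pairs (43.5% to 44.6% over libraries) and of 19.1% of occupied single 5' ends (18.1% to 19.8%). The longest peak had a median of 2478.5, 2528.5, 2316 and 2432 bp at head-to-head pairs and of 1916, 1964, 1788 and 1896 bp at single 5' ends, a difference of 548 bp ± 18.5 (SD, n = 4; exact p = 0.13). H3K9ac replicate 1 had the shortest peaks in both classes, and the length difference without any 1 library stayed between 542 and 554 bp.

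Tandem pairs had higher but not longer peaks than single 5' ends. Their median percentile of 77.0 to 79.7 was above that of single 5' ends by 5.40 ± 0.357 (SD, n = 4; exact p = 0.13). Their median longest peak of 1803 to 1961 bp differed from that of single 5' ends by -4.75 bp ± 26.7, with the sign split over the libraries (higher in 2 of 4; exact p = 0.875). The sign of that length difference changed with 7 of the other settings tried.

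Occupied tail-to-tail pairs were few, but the peaks that reached their windows were not weak. Where the highest summit lay in a gene, it was a median 771 bp into it (731 to 833 bp over libraries). Only 27.9% of these summits were within 500 bp of the facing end, so most peaks reached the window from a summit outside it. The median percentile was 70.6, 74.4, 68.5 and 71.4, against 44.1 to 47.1 at occupied single 3' ends, a difference of 26.1 ± 1.43 (SD, n = 4; exact p = 0.13). That difference was 24.3 where the summit had to lie in the window. Their longest peak exceeded that of single 3' ends by 654 bp ± 115 (SD, n = 4; exact p = 0.13), and by 392 bp among peaks with a -log10 q of at least 10. An annotated start lay under the strongest peak in 47.1%, 55.3%, 52.1% and 52.0% of occupied tail-to-tail pairs and in 26.1% to 30.03% of occupied single 3' ends. Starts were taken from RefSeq promoter windows, which matched 79.6% of coding genes, so starts of other genes could be missed. Of the 43 tail-to-tail pairs with peaks in every library, 3 had an annotated start inside the window. In H2ac21/H2ac20 these were the starts of both short histone genes themselves, and in Smim27/Ndufb6, at a mean percentile of 97.0, it was the start of Topors, a ubiquitin and SUMO ligase. The mean percentile of those 43 pairs ran from 25.6 at Gm38499/Vasp to 97.6 at Rnaseh2c/Kat5, which holds a subunit of ribonuclease H2 and the Tip60 acetyltransferase. These examples were chosen after their values were seen.

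A single peak usually spanned both ends of a head-to-head pair, and few summits lay in the narrow gap. A single peak held both facing ends in 91.1%, 91.3%, 85.0% and 90.4% of occupied head-to-head pairs, in 53.8% to 59.8% of tandem pairs and in 32.0% to 36.2% of tail-to-tail pairs. The classes differ in gap width, so these shares are not on a like basis. At gaps of 101 to 250 bp they were, in the same order, 75.3% to 89.7%, 81.5% to 88.9% and 36.4% to 55.6%. At 501 to 1000 bp they were 74.4% to 76.9%, 36.9% to 41.7% and 16.7% to 22.2%. H3K9ac replicate 1 was lowest at head-to-head pairs, and 11.9% of its occupied head-to-head pairs had several peaks, against 5.54% to 7.58% in the other libraries. The highest summit fell between the starts in 2.12% of occupied head-to-head pairs (1.67% to 2.58% over libraries), and otherwise lay a median 348 bp into a gene (342.5 to 354 bp). The median gap was only 100 bp with a gene on either side, so a low share in the gap is partly given by the layout. An expected share was not computed. At single 5' ends the summit lay in the gene in 86.5% of cases, a median 367 bp from the start. In tandem pairs it lay downstream of the facing 5' start in 85.7% of cases, a median 337.5 bp from it.

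**Figure D2:**
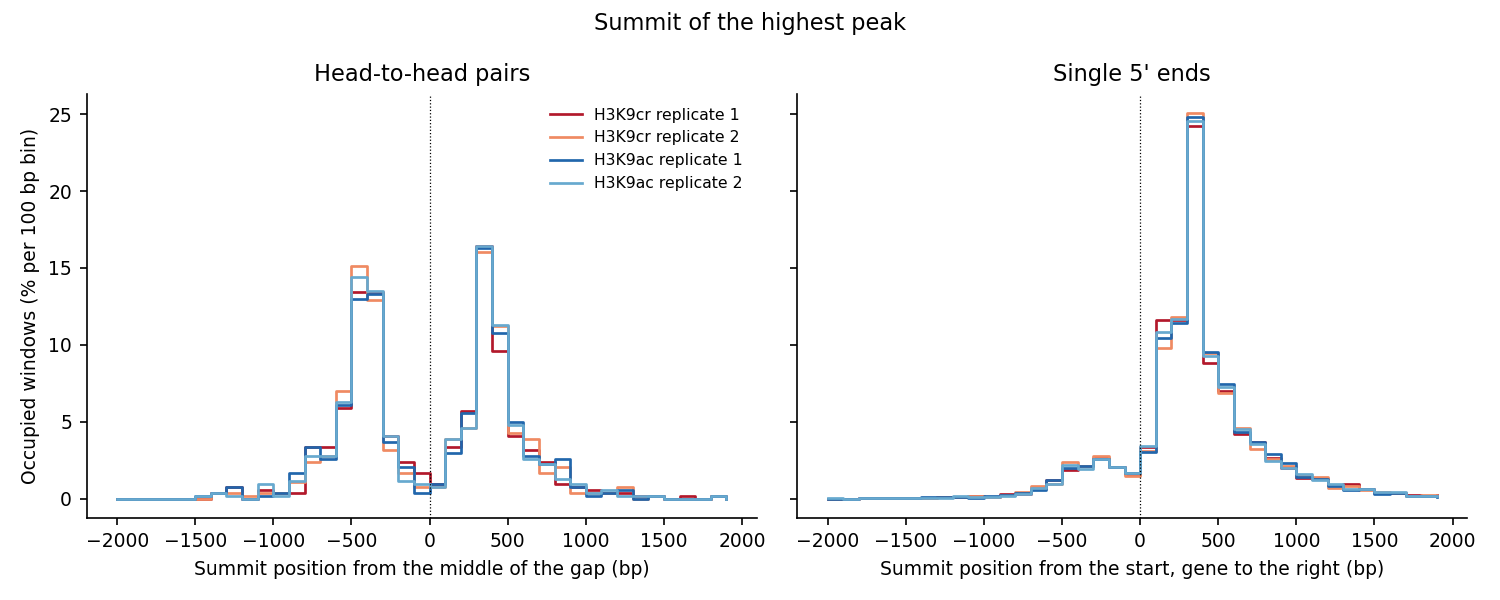
Position of the highest summit in each library, in 100 bp bins as a share of occupied windows; left, from the middle of the gap at head-to-head pairs, and right, from the start at single 5' ends, with the gene to the right. Head-to-head pairs have a maximum on either side of the gap and few summits in it (2.12%), and single 5' ends have a maximum on the gene side (86.5% of summits). The shares are not on a like basis, since the gap is narrow (median 100 bp) and has a gene on either side.

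The greater length of head-to-head peaks was matched by their reach into both genes. Where a single peak held both starts, it reached a median 1162 bp into each gene (1122 to 1189.5 bp over libraries). A peak over a single 5' start reached 1293 bp into the gene (1241 to 1329 bp) and 640 bp upstream of it (612 to 663.5 bp). Into a gene, then, the peaks at pairs reached somewhat less far than those at single starts, and on the other side of a start they reached further.

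In head-to-head pairs the share with a single peak differed more between narrow and wide gaps than occupancy did. In head-to-head pairs with a gap of 0 to 50 bp, 95.9% of 148 had peaks in every library, and with 501 to 1000 bp 92.9% of 42 did. The share with a single peak over both starts was 95.1% to 97.2% in the former and 74.4% to 76.9% in the latter. The median longest peak was 2189 to 2400.5 bp at gaps of 0 to 50 bp and 2646 to 2710 bp at 501 to 1000 bp, so that it differed by less than the added gap. Tandem pairs had peaks in every library in 56.3% of 16 pairs at 0 to 50 bp, 47.6% of 42 at 51 to 100 bp, 71.1% of 76 at 101 to 250 bp, 66.7% of 117 at 251 to 500 bp and 75.1% of 197 at 501 to 1000 bp. Tail-to-tail pairs did in 10.5% to 16.7% of the pairs of each bin up to 500 bp and in 4.52% of 155 at 501 to 1000 bp. Just inside the limit of the rule, at 901 to 1000 bp, 3 of 3 head-to-head, 18 of 28 tandem and 2 of 24 tail-to-tail pairs had peaks in every library. Just outside it, at 1001 to 1100 bp, 3 of 3, 21 of 30 and 2 of 31 did.

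**Figure D3:**
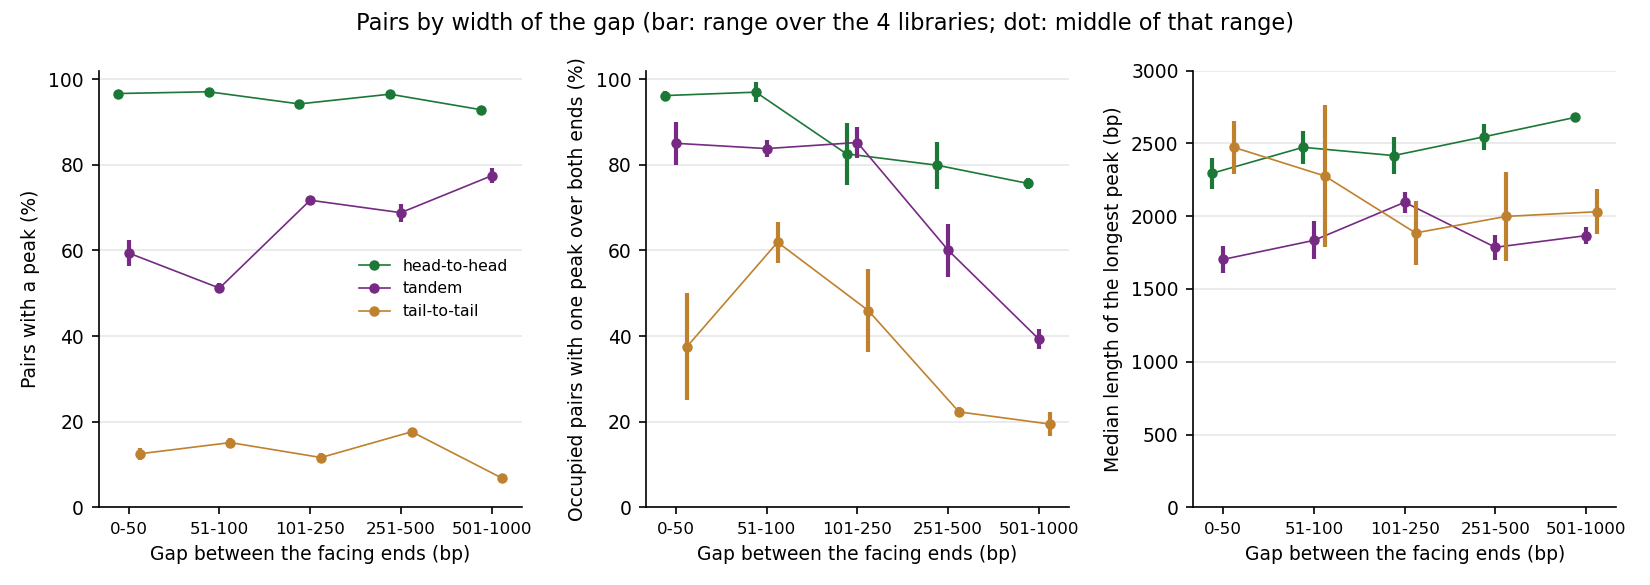
Pairs by width of the gap in bp: share with a peak (left, %), share of occupied pairs with a single peak over both ends (middle, %) and median length of the longest peak (right, bp); bars give the range over the 4 libraries and dots its middle. At head-to-head pairs occupancy stays above 92% at all widths while the share with a single peak goes from 95.1% to 97.2% at 0 to 50 bp down to 74.4% to 76.9% at 501 to 1000 bp.

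Pairs known for a shared promoter were among the highest. Of 26 such pairs asked for, 15 met the rule, 11 of them head-to-head and the rest without an assigned orientation, and 14 had peaks in every library. Brca1/Nbr1, which holds a gene of homologous recombination and an autophagy receptor, stood at percentiles 99.1, 98.9, 99.1 and 98.5, with single peaks of 3720, 3831, 3811 and 3515 bp. Mcm4/Prkdc, a subunit of the replicative helicase and the catalytic subunit of DNA-dependent protein kinase, stood at 98.3, 99.0, 99.3 and 99.1. The lowest value of these pairs in any library was thus 98.3.

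Gnl3/Pbrm1, which encodes nucleostemin and a subunit of the PBAF remodelling complex from starts 6 bp apart, had percentiles of 97.2, 97.7, 96.4 and 98.0. Ranbp1/Trmt2a, a Ran-binding protein and a tRNA methyltransferase, had 97.7, 98.1, 97.3 and 98.5. Its peak was 3946, 3930 and 3859 bp long in the other libraries but split in H3K9ac replicate 1, where the longest piece was 1916 bp. The split shortened the longest piece, while the rank of the pair stayed at 97.3 in that library.

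Atm/Npat, which joins the DNA damage kinase Atm to a coactivator of histone genes, had percentiles of 93.1, 93.3, 94.7 and 94.3. A single peak of 3412 bp covered both starts in H3K9cr replicate 1, whereas the other 3 libraries had a peak in each gene, with the longer at 1608, 1601 and 1602 bp. In H3K9cr replicate 2 the Atm peak stood at percentile 73.0 and the Npat peak at 93.3, and in the H3K9ac libraries at 63.9 and 94.7 and at 70.0 and 94.3. The Npat side was the higher in each library where the peaks were separate.

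The other known pairs lay lower. Nfya/Oard1 stood at 95.3 to 96.2, Pdcd10/Serpini1 at 90.4 to 93.3, Hscb/Chek2 at 84.0 to 86.2 and Sirt3/Psmd13 at 81.7 to 83.8. Mrps12/Sars2, both for mitochondrial translation, stood at 81.4 to 82.9, and Hadha/Hadhb, the subunits of the mitochondrial trifunctional protein, at 74.6 to 77.4. Psmb9/Tap1, which encodes a subunit of the immunoproteasome and a peptide transporter for antigen presentation, was lowest of the 14 at 52.1, 52.0, 49.5 and 53.0. Even there a single peak of 1681 to 1811 bp covered both starts in each library.

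**Figure D4:**
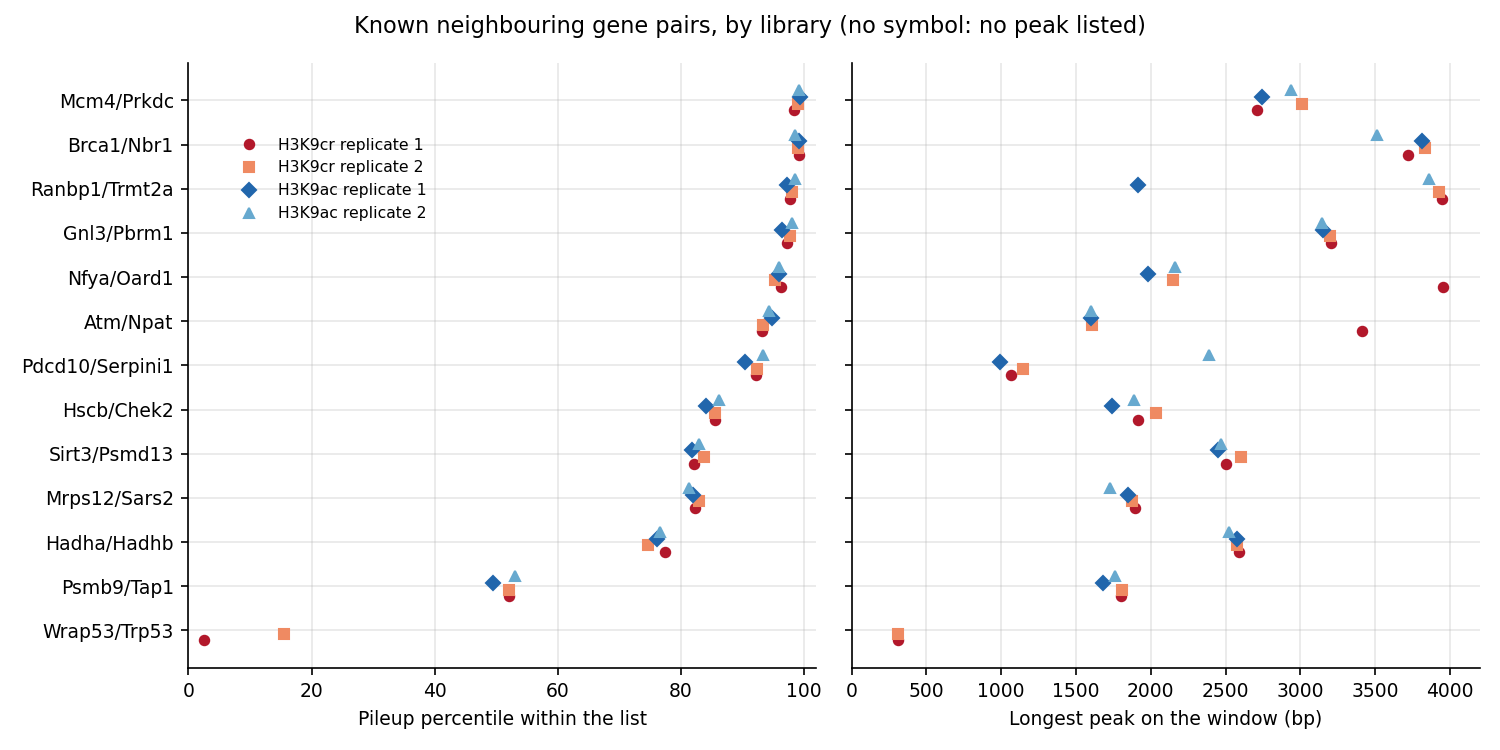
Pileup percentile of the highest peak (left) and length of the longest peak in bp (right) at 13 known pairs, ordered by mean percentile; each symbol is 1 library, and a pair without a symbol had no peak in that library. The libraries of a pair lie close together in percentile from Mcm4/Prkdc down to Psmb9/Tap1, while lengths separate where a peak was split, as at Ranbp1/Trmt2a, Nfya/Oard1 and Atm/Npat.

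The 15th known pair, Wrap53/Trp53 (facing ends at chr11:69580250 and 69580348), had weak peaks of 307 and 310 bp in the H3K9cr libraries, at percentiles 2.47 and 15.6, and none in the H3K9ac libraries. Strong peaks lay just outside its window on the Wrap53 side. They ended 452, 501, 454 and 487 bp short of the window and stood at percentiles 98.9, 98.5, 99.0 and 98.6. In these cells the high peak thus lay within the Wrap53 gene record and not over its outer end.

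The highest pairs by their lowest library were Tmed7/Eif1a, Cntrob/Trappc1, Zfp672/Sh3bp5l, Tnfaip1/Ift20 and Nup88/Rpain. Tmed7/Eif1a, which encodes a cargo receptor of the secretory pathway and a translation initiation factor, stood at percentile 99.9 in each library with pileups of 736, 852.5, 553 and 882 in the units of each list. Tnfaip1/Ift20, an adaptor of a ubiquitin ligase and a subunit of intraflagellar transport, stood at 99.9, 99.8, 99.7 and 99.8. Nup88/Rpain, a nucleoporin and an importer of replication protein A, stood at 99.9, 99.7, 99.8 and 99.8. A single peak of 2381 to 3145 bp held both starts of the latter pairs, whose sequences are among those printed above.

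Genes of basic cell functions were often in pairs, and their head-to-head pairs were almost always occupied. Of 93 genes of the respiratory chain and ATP synthase, 46 (49.5%) were in a pair, as were 30 of 78 mitochondrial ribosomal protein genes (38.5%), 45 of 125 genes of DNA repair and replication (36.0%) and 13 of 38 aminoacyl-tRNA synthetase genes (34.2%), against 17.5% of all coding genes. Peaks in every library were found at 38 of 49 respiratory pairs, 27 of 34 mitochondrial ribosomal pairs, 38 of 51 repair pairs, 10 of 15 synthetase pairs, 11 of 17 proteasome pairs and 22 of 28 cytosolic ribosomal pairs, against 60.2% of all pairs. Their head-to-head pairs were occupied in 23 of 23, 16 of 16, 24 of 24, 6 of 6, 6 of 6 and 7 of 8 cases, against 95.4% of all head-to-head pairs, a share near that background.

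Ranks differed among these groups. Over pairs with peaks in every library, the median of the mean percentile was 95.8 for cytosolic ribosomal proteins, 93.8 for the proteasome, 92.8 for DNA repair, 92.5 for the respiratory chain, 91.3 for the synthetases and 85.5 for mitochondrial ribosomal proteins, against 85.0 for all pairs. Mrps18b/Ppp1r10, a mitochondrial ribosomal protein and a regulator of protein phosphatase 1, stood at 99.3, 99.5, 99.5 and 99.4. Xpc/Lsm3, with the damage sensor of nucleotide excision repair, stood at 99.6, 99.4, 99.5 and 99.1. Atp5md/Pdcd11, with a small subunit of ATP synthase, stood at 99.4, 98.7, 99.2 and 98.8. Ftsj3/Psmc5, with a proteasomal ATPase, stood at 99.3, 99.3, 98.4 and 98.9. Kars/Terf2ip, with lysyl-tRNA synthetase and the telomere protein Rap1 from starts 4 bp apart, stood at 98.1, 98.1, 97.4 and 97.9. These groups were described only, and no group was tested against the others.

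Of the gene groups described, histone genes had the largest share in pairs, 42 of 63 (66.7%), and 24 of their 25 pairs joined 2 histone genes. Peaks in every library covered 20 of their 25 pairs, but only 7 of 10 head-to-head pairs. H2ac20/H2bc21 and the adjoining H2ac21/H2ac20 shared the same peak of 3279 to 3816 bp at percentiles 97.1, 98.2, 95.8 and 96.3. Histone genes are near-identical copies, and the placement of reads that match several copies is not stated in the labels, so their values are uncertain.

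Of the 565 head-to-head pairs, 21 had no peak in any library. Among them were 3 histone pairs, H2bc23/H2ac23, H2ac24/H4bc24 and the germline pair H2bc1/H2ac1, and pairs of other gene families, with 2 pairs of Mup genes (major urinary proteins) and the olfactory receptors Olfr181/Olfr183. Best1/Rab3il1 holds a chloride channel of the retinal pigment epithelium, and Tfpi2/Gngt1 a transducin subunit of rods. Smc1b/Ribc2 holds the meiotic cohesin subunit, and Mlc1/Mov10l1 the germline helicase Mov10l1. Ifit1bl2/Ifit1 holds interferon-induced genes. Ctnnd1/Btbd18, with the widely expressed p120 catenin, was also without a peak at the facing ends of its gene records. The pairs without a peak and with the shortest gaps in all classes were Bhlha15/Tecpr1, Coro6/Ankrd13b and Ints14/Hacd3, all tail-to-tail with gaps of 0 to 1 bp, and Snf8/Ube2z and Nelfe/Cfb, of unassigned orientation.

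The promoters of head-to-head genes were rich in CpG. In 300-bp RefSeq windows (250 bp before to 50 bp after the start), the median G+C content was 62.0% over 1123 head-to-head genes and 55.0% over 10334 single 5' genes, and the median CpG count was 23 and 11. Where peaks were found in every library the classes were closer, with 24 and 22 CpG, and the ratio of observed to expected CpG was 0.851 and 0.768. The 42 genes of head-to-head pairs without a peak had a median of 5.5 CpG, and 4683 single 5' genes without a peak had 2. CpG count thus moved with occupancy in both classes, and its part in the difference between them was not tested.

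Short sequence motifs were counted in the same windows on both strands, none of the strings containing another. CCGGAAG, the core bound by ETS factors, was found in 28.4% of 1071 head-to-head genes with peaks in every library, 13.99% of 5412 occupied single 5' genes and 12.3% of all 16457 windows. AAGATGGC, bound by YY1, was found in 9.24%, 3.51% and 3.21%. TGACGT of CREB and ATF factors was found in 15.6%, 11.3% and 8.82%, CCAAT of NFY in 44.4%, 37.2% and 39.1%, and GCATGCGC of NRF1 in 6.82%, 5.30% and 3.66%. GGGCGG of SP factors was in 68.2%, 70.0% and 47.3%, and TATAAA, the TATA box, in 5.42%, 6.63% and 13.5%. Windows of a head-to-head pair overlap when the gap is short, so a match can be counted for both genes. A match is a run of letters and does not show binding. In the stretches printed above, Tnfaip1/Ift20 held the ETS, SP and CREB/ATF strings, Nup88/Rpain the SP, NFY and YY1 strings, Atm/Npat the SP and NFY strings and Brca1/Nbr1 the NFY and CREB/ATF strings. None of the 7 strings was in the printed stretches of Smc1b/Ribc2, Ifit1bl2/Ifit1, Tfpi2/Gngt1 or Best1/Rab3il1, but other pairs without a peak held some. Over the 42 genes of head-to-head pairs without a peak, the NFY string was in 66.7% of windows, the SP string in 21.4%, CREB/ATF in 19.05%, the TATA box in 11.9%, ETS and NRF1 in 2.38% each and YY1 in 0%.

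**Figure D5:**
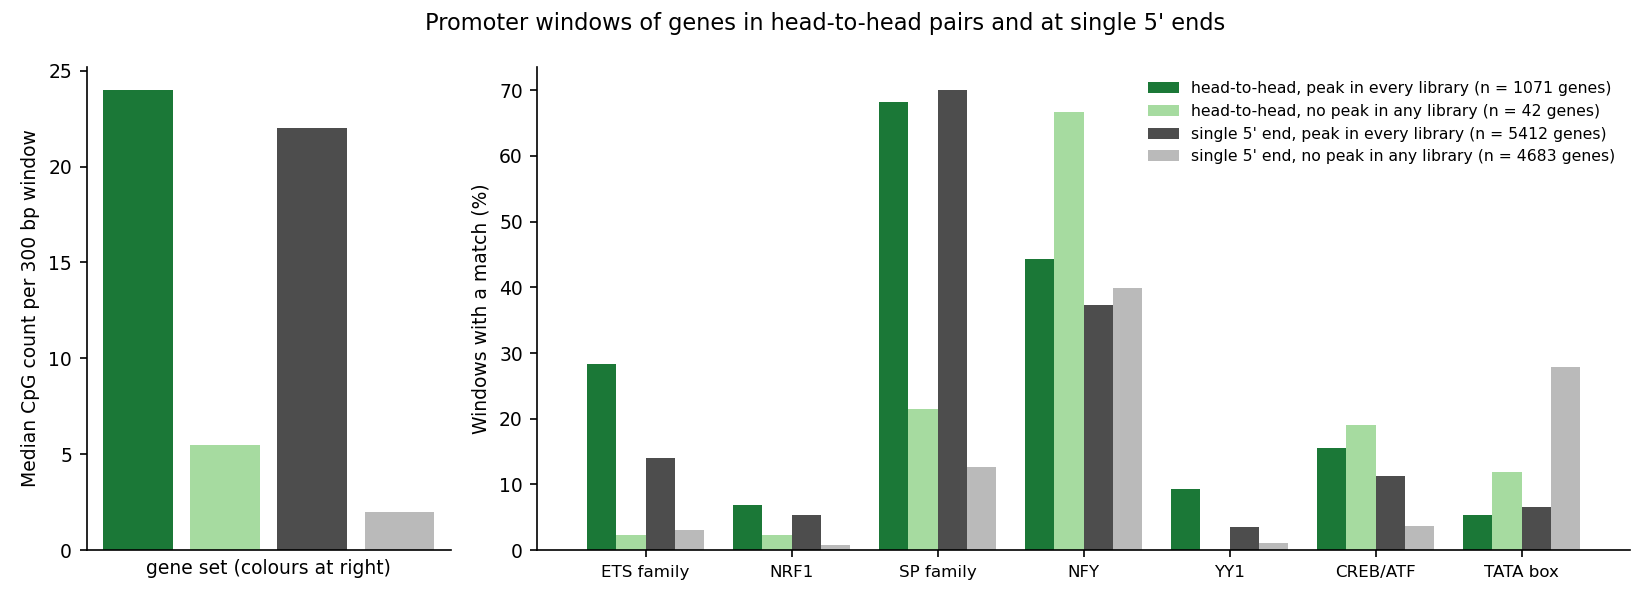
Median CpG count (left) and share of windows with each motif (right, %) in 300-bp promoter windows of head-to-head genes and single 5' genes, with and without peaks. Occupied head-to-head genes have a median of 24 CpG and carry the ETS string in 28.4% of windows, against 22 and 13.99% at occupied single 5' genes.

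Both marks covered much the same pairs, with somewhat longer peaks on average for H3K9cr, mostly against H3K9ac replicate 1. The median longest peak averaged 2306 bp for H3K9cr and 2173 bp for H3K9ac at pairs, and 1925 and 1835.5 bp at single ends. By library it was 2292, 2320, 2121.5 and 2225 bp at pairs and 1901, 1949, 1781 and 1890 bp at single ends. At single 3' ends alone the means were 1404.5 bp for H3K9cr and 1412 bp for H3K9ac. Over the whole lists the median peak length was 1208, 1246, 1185 and 1228 bp. A single peak over both ends was found in 74.3% and 75.7% of occupied pairs for H3K9cr and in 69.8% and 74.0% for H3K9ac. The H3K9cr values were above both H3K9ac values, by 3.13 percentage points on average (exact permutation p = 0.33, the smallest that 2 libraries against 2 allow). At occupied single ends, the share with a peak over the end itself was also higher for H3K9cr, by 1.91 points. The rest of this paragraph is about pairs. The difference rested on single libraries: it was 1.02 points without H3K9ac replicate 1 and 5.24 points without H3K9ac replicate 2. Over the 539 head-to-head pairs with peaks in every library, Spearman's rho of the percentiles was 0.967 to 0.981 between libraries, and for H3K9ac replicates it was 0.975. These are correlations across pairs within the same cell line, not across independent samples.

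Peaks of a single mark were rare and weak. Both H3K9cr libraries and neither H3K9ac library had a peak at 4 of 2014 pairs, against 44 of all 26935 pairs and single ends (0.163%), and the reverse held for 1 pair, against 9 of 26935 (0.0334%). The 4 were Wrap53/Trp53, Xaf1/Fbxo39 (percentiles 21.2 and 29.6), Mbd1/Cfap53 (9.83 and 16.8) and Sh3bp1/Pdxp (4.02 and 8.70), with peaks of 267 to 351 bp. The H3K9ac pair was Kctd19/Lrrc36, with peaks of 279 and 323 bp at percentiles 18.8 and 15.2. All 5 stood at percentile 29.6 or lower.

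The length covered by peaks within 2500 bp of the facing ends, centred on each library's median, differed between marks at 0 of 1212 pairs by limma with Benjamini-Hochberg adjustment, and at 0% of all 8430 pairs and single ends tested. At an unadjusted p under 0.05 there were 64 pairs, or 5.28%, near the 4.84% over everything tested. Centring takes out a shift common to a library. Without it H3K9cr covered more at 80.9% of the pairs, with a median of 99 bp, against 75.5 bp over everything tested, and calls were again 0. The pair with the smallest p was Eif3k/Map4k1, a translation initiation factor subunit and a kinase, chosen after its values were seen. H3K9cr covered 783 bp more there (SE 92.8, limma adjusted p = 0.692). A single H3K9cr peak ran over its gap in both libraries, while both H3K9ac libraries had 2 peaks.

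The rank of the highest pileup, as a normal score, differed between marks at 2 of 1212 pairs by limma, against 6 of 8430 over everything tested (0.0712%), and at an unadjusted p under 0.05 at 105 pairs (8.66%), against 7.77% over everything tested. The count of pairs was 0 with percentiles in place of normal scores, 1 with a stricter -log10 q of at least 10, 5 with a replicate block and 5 to 10 when a library was left out (10 and 9 without H3K9cr replicates 1 and 2, 5 and 9 without H3K9ac replicates 1 and 2). Brms1/Rin1 (chr19, facing ends 5049912 and 5049999) holds a metastasis suppressor and a Ras effector. Its highest peak stood at percentiles 91.7 and 89.1 for H3K9cr and 16.9 and 27.6 for H3K9ac, a difference of 2.75 in normal score (SE 0.104, limma adjusted p = 1.14e-05). The same Rin1 summit was listed for H3K9ac, at percentiles 84.0 and 88.6, in peaks that began 5 and 25 bp beyond the window. At Foxh1/Ppp1r16a, with the forkhead factor of Nodal signalling, the percentiles were 94.1 and 91.7 against 67.2 and 67.2, a difference of 1.29 (SE 0.0993, limma adjusted p = 0.00114). H3K9cr had single peaks of 6273 and 6177 bp there, while H3K9ac had 2 peaks, of which the higher stood at 92.3 and 92.6 and ended 591 and 695 bp short of the window. In both pairs, then, the marks had summits of like rank at the same place, in peaks that reached the window for H3K9cr but not for H3K9ac.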

How the data were processed

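Peak lists of 4 libraries (2 of H3K9cr, 2 of H3K9ac) were used, 1 per library as deposited. Groups and replicate numbers follow the labels. Bowtie2 2.4.1, MACS2 2.2.7.1 and GRCm38 are named per the submitters' processing notes; options and depth are not given in the sources read here. Rows hold positions, length and summit and, per the file headers, the authors' pileup signal, -log10 p-value, -log10 q-value and fold enrichment, a ratio to local background. Only percentiles of pileup within a list were compared.

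Pairs and single ends came from the RefSeq gene table of GRCm38.p6. Strand came from RefSeq promoter windows, which matched 16457 genes (79.6%); the window's start lay within 100 bp of the gene record's end for 77.0% of them. A peak counted when it overlapped a window by at least 1 bp. Libraries, not pairs, were the replicates. Marks were compared with limma 3.58.1 (R 4.3.3) over all pairs and single ends with a peak in every library, without a replicate block, at an adjusted p of 0.05. Same-numbered libraries were not taken as pairs: the labels do not tie them, and their deviations correlated at 0.13 (length) and 0.0101 (rank). Other steps used Python 3.11.15 with pandas 2.3.3, numpy 2.4.6 and scipy 1.17.1. The code was tested on simulated data.

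The pairs named are the known pairs, the 5 highest, the 5 longest, those of a single mark, the 5 without a peak and with the shortest gaps, those past the limma threshold and up to 2 per gene group, apart from a few chosen after their values were seen. Some pairs that this rule takes are not reported here. Members, gene groups and settings were chosen with earlier results of these data known. Alternatives were other flanks, gaps and isolation distances, a stricter q, lists of equal size, summits in place of overlap, no predicted genes and leaving out each library; windows around each end alone and the removal of receptor genes were added after seeing the data.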

Additional observations from a re-analysis of the deposited data

How the results depend on the processing

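For 13 of the 15 results, all 194 recomputed values kept their direction or, for covered length, their 0 calls. For the within-library differences and the share with a single peak, only the direction could change. Their p is at least 0.13 by the sign-flip test and 0.33 by the permutation test, so no setting could bring it under 0.05. The length difference of tandem pairs, -4.75 bp, changed sign in 7 of 16: it was 90.4 bp with the summit in the window, 3.75 bp and 11 bp with flanks of 250 and 1000 bp, 7.63 bp with gaps up to 500 bp, 14 bp with an isolation of 2000 bp and 21 bp with each end on its own (added after seeing the data), and ran from -11.3 to 8 bp when a library was left out, positive without H3K9ac replicate 2; the cause was not tested. The 6 calls on pileup rank became 36 with a replicate block, 1 with percentiles in place of normal scores and 21 to 80 when a library was left out (66 and 80 without H3K9cr replicate 1 and 2, 21 and 38 without H3K9ac replicate 1 and 2); the calls among pairs were 5, 0 and 5 to 10, and the cause was not tested. The replicate block changed no other call, and the within-library differences are the same under it by construction. Covered length gave 0 calls under all settings run, with 408 at an unadjusted p under 0.05 in the reported fit. Without read depth, the lists cannot show signal below the authors' threshold, and peak ends depend on it.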

Other observations

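The longest peaks at pairs were those of Kdm6b/Dnah2, Rhof/Setd1b, Zfp36l1/Gm52006, Cks1b/Shc1 and Pcgf2/Psmb3. Kdm6b/Dnah2, with the H3K27 demethylase Kdm6b, had peaks of 13918, 13949, 13754 and 13819 bp in the library order used above, and Rhof/Setd1b, with an H3K4 methyltransferase, had 10310, 13670, 9537 and 10855 bp. Zfp36l1/Gm52006 (7362 to 7556 bp), Cks1b/Shc1 (6882 to 7077 bp) and Pcgf2/Psmb3 (6741 to 6966 bp) followed. The 5 pairs had the same order of magnitude in all 4 libraries, and Rhof/Setd1b varied most.

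Zinc finger genes of the Zfp series formed 38 pairs, of which 26 had peaks in every library, and 12 of 12 head-to-head pairs did. Solute carriers formed 65 pairs, with 34 occupied in every library and 10 of 11 head-to-head pairs. Of 4 pairs of Hox genes, developmental regulators, 2 were occupied, Hoxb8/Hoxb7 at percentiles 38.0 to 46.1 and Hoxa5/Hoxa6 at 33.8 to 38.0, below the median of 85.0 over all pairs. Collagen genes formed 3 pairs, with 1 occupied, Col23a1/Phykpl at 97.9 to 98.8. Olfactory and vomeronasal receptors formed 5 pairs, with 0 occupied in every library. Genes whose symbols begin with Krt formed 4 pairs, and the 2 occupied ones were those of Krtcap3, which is not a keratin. The 28 pluripotency genes and the 57 clustered protocadherin genes formed 0 pairs.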
